A study of Mus musculus with 15 samples.

Results

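The loss of PCBP1 was examined in NMuMG cells, an epithelial line from the mouse mammary gland, by setting 2 RNA-Seq samples of cells with an shRNA against PCBP1 (shPCBP1) beside 2 samples of control cells. These are 4 of the 15 samples of the study. The genes compared were the 11384 whose mean over the 4 samples was at least 0.5 CPM (reads of a gene scaled to the size of its library), of 15023 protein-coding genes listed in the table that holds these samples. The other 11 samples belong to a separately normalized table without control cells, and from it only the 4 shPCBP1 lines are used here, without a test. The RNA was total RNA depleted of ribosomal RNA and made into strand-specific libraries.

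Both groups are NMuMG cells of wild type genotype. The shPCBP1 cells carry a lentiviral shRNA knockdown of PCBP1 as their treatment. The control cells are labelled as having had no treatment, whereas the paper describes the control of this dataset as cells with a scrambled shRNA (shSCR). That the controls carry a vector is thus stated by the paper and not by the labels, and this conflict was not resolved here. If the controls carry no vector, effects of transduction and selection cannot be told apart from those of the knockdown. The group rests on 1 knockdown line, and whether that line was grown from 1 clone is not given in the sources used here. Nothing says that the 2 samples of a group came from separate cultures, so that the p-values below measure the spread between these samples, which may be technical.

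PCBP1, also called hnRNP E1, is an RNA-binding protein with KH domains that holds C-rich stretches of single-stranded RNA. It takes part in splicing, mRNA stability and the silencing of translation, and it also delivers iron to proteins in the cytosol. NMuMG cells are widely used to follow the epithelial-mesenchymal transition (EMT), in which cells give up cell-cell junctions and apical-basal polarity and take on the adhesion, matrix and cytoskeleton genes of mesenchymal cells.

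The lowest values of the 4 samples implied totals of 53032201 to 56496400 reads, so that 0.1 CPM stood for 5.3 to 5.65 reads and 1 CPM for 53 to 56.5 reads. The smallest value in the table, 0.0001 CPM, stands for no reads and is called the lowest value here. The median absolute log2 difference between replicates over the genes tested was 0.0569 in the controls and 0.0517 in shPCBP1. Of 8 epithelial markers 4 are listed (Cdh1, Krt8, Krt18 and Krt19), and their summed level was 2916 and 2970 CPM in the controls and 2766 and 2823 CPM in shPCBP1. The 4 mesenchymal markers (Vim, Cdh2, Fn1 and Zeb1) summed to 530 and 550 CPM in the controls and to 1295 and 1329 CPM in shPCBP1. Both groups thus kept a high level of the defining keratins. Defining markers of other cell types were low. The 3 endothelial markers listed (Cdh5, Kdr and Pecam1) summed to at most 0.0534 CPM in the controls and 0.341 CPM in shPCBP1, and the 3 leukocyte markers of 4 (Cd68, Laptm5 and Ptprc) to at most 1.15 and 2.96 CPM. The 2 adipocyte markers of 3 (Adipoq and Cidec) summed to at most 0.377 CPM in every sample. Wider lists of these types were higher through single genes. The 9 leukocyte genes listed of 12 summed to 96.04 and 94.7 CPM in the controls and 88.4 and 90.2 CPM in shPCBP1, of which Cd14 alone gave 93.2 and 91.9 CPM and 83.8 and 86.1 CPM, while Ptprc was at no more than 0.0355 CPM. The 6 adipocyte genes listed of 10 summed to 9.91 and 10.52 CPM in the controls and 14.1 and 14.3 CPM in shPCBP1, mostly from Lipe. In these bulk samples, fewer cells of a type and less RNA of a gene per cell cannot be told apart.

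The targeted gene was lower in both shPCBP1 samples. Pcbp1 (ENSMUSG00000051695.6, chromosome 6 of GRCm38 from 86524492 to 86526321, minus strand) was at 287 and 312 CPM in the controls against 14.1 and 14.2 CPM in shPCBP1, a 21.2-fold fall and a log2 difference of −4.39 (standard error 0.0376, adjusted p = 5.23e-14, limma with Benjamini-Hochberg adjustment). Its closest relative Pcbp2, which binds similar C-rich RNA, was at 34.5 and 31.2 CPM in the controls against 41.5 and 42.8 CPM in shPCBP1. That difference passed the test but stayed under 1.5-fold (log2 0.36, adjusted p = 2.96e-05 from limma). Pcbp4, another member of the family, rose 1.65-fold, from 9.1 and 8.96 CPM to 14.4 and 15.3 CPM. Fam3c, the secreted factor whose translation PCBP1 is known to hold back, was at 25 and 26.6 CPM in the controls against 20.9 and 19.6 CPM in shPCBP1, a difference under 1.5-fold. The shPCBP1 cells therefore had a small remainder of Pcbp1 RNA beside a modest change in its relatives.

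Most genes differed between the groups by more than the spread between replicates. Differences were computed as log2(CPM + 0.1), a scale that shrinks the change of lowly expressed genes, and were tested with limma at a Benjamini-Hochberg adjusted p under 0.07, the threshold of the study. Of the genes tested, 9123 passed, which is 80.1%, with 4792 higher and 4331 lower in shPCBP1. Because the replicates lay so close together, a gene is called here only if it also differed at least 1.5-fold, and rose and fell are used of called genes alone. On that rule 3543 genes were called, which is 31.1% of those tested. Of these, 1823 (16%) rose and 1720 (15.1%) fell. At least 4-fold differences were held by 447 genes that rose and 241 that fell, while the median log2 difference of all genes tested was 0.02. With 2 samples against 2, an exact permutation test of a single gene cannot go below p = 0.333, so the p-values rest on limma's pooled estimate of the spread. In every gene whose values in both groups are given for each sample, the samples of the groups did not overlap. That held also for Srebf2, given below, which did not pass the test. How many of all genes tested do not overlap was not counted, so the lack of overlap is no result about the named genes. The counts of each function are read against the 16% that rose and the 15.1% that fell.

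**Figure D1:**
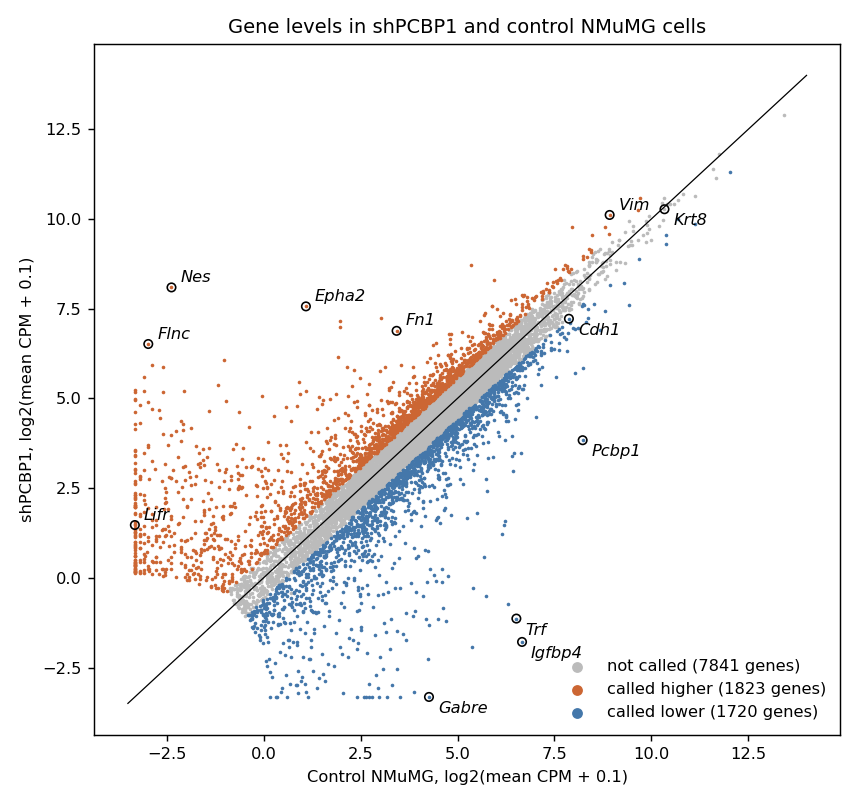
Each point is 1 of the 11384 genes tested, with its mean level in the 2 control samples on the horizontal axis and in the 2 shPCBP1 samples on the vertical axis, both as log2(mean CPM + 0.1). The 1823 genes that rose lie above the diagonal and the 1720 that fell lie below it, and a column of points at the left edge holds genes such as Lifr that were at the lowest value in the controls.

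A set of genes passed from near absence to clear expression or the reverse. A gene was counted as switched on if it was under 0.1 CPM in both controls and at least 1 CPM in both shPCBP1 samples, and as switched off in the reverse case. Of the 15023 genes listed, 161 (1.07%) were switched on and 38 (0.253%) were switched off. Since the rule uses the values themselves, they are described here without a test or a fold change. In 71 of the genes switched on and 12 of those switched off, both samples of the low group were at the lowest value. The median level in the group with expression was 2.67 CPM for the genes switched on and 2.87 CPM for those switched off, and 27 and 4 genes reached 10 CPM. Just inside the rule, the lowest value in the high group was 1.00 CPM and the highest in the low group 0.0944 CPM. Just outside it, 35 genes reached only 0.8 to 1 CPM and 26 stood at 0.1 to 0.15 CPM in the controls, while the corresponding numbers for genes that went down were 8 and 10.

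The genes switched on at the highest levels came from several functions. Flnc, which encodes the actin crosslinker filamin C, was at 0.0355 and 0.0190 CPM in the controls against 91.2 and 91.4 CPM in shPCBP1. Slc38a1, a glutamine transporter, was at 0.0532 and 0.0190 CPM in the controls against 59.4 and 62.1 CPM in shPCBP1. Serpinh1, the collagen chaperone HSP47 of the endoplasmic reticulum, was at 0.0355 and 0.0944 CPM in the controls against 56.6 and 61.2 CPM in shPCBP1. Each of these was at 5 reads or fewer per sample in the controls. Atp11a, a lipid flippase, was at the lowest value in both controls against 37.8 and 36.7 CPM in shPCBP1. Gpc1, which encodes the heparan sulfate proteoglycan glypican-1, was at 0.0355 CPM and the lowest value in the controls against 37.1 and 36.2 CPM in shPCBP1. Tead2, a DNA-binding partner of YAP, was at the lowest value in both controls against 35.6 and 36.8 CPM in shPCBP1. Ly6a, the surface antigen Sca-1 that marks progenitor cells, was at 0.0532 and 0.0755 CPM in the controls against 37.5 and 35.2 CPM in shPCBP1. The remaining genes among the 15 with the highest levels were Ckap4, Soga1, Zfp518b, Adcy1, Chst11, Kctd17, Tacc1 and Lhfp, with shPCBP1 values from 24.3 CPM (Lhfp) to 48.5 CPM (Ckap4). Lifr, the receptor for leukaemia inhibitory factor, was at the lowest value in both controls against 2.94 and 2.4 CPM in shPCBP1, near the median level of the genes switched on.

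The genes switched off were fewer, and fewer of them reached 10 CPM. Gabre, a subunit of the GABA-A receptor channel, was at 19.2 and 19 CPM in the controls against the lowest value in both shPCBP1 samples. Mal2, needed for transcytosis to the apical membrane, was at 14.8 and 14.5 CPM in the controls against the lowest value and 0.0186 CPM in shPCBP1. Marveld2, which encodes tricellulin of the tricellular tight junction, was at 10.5 and 11.1 CPM in the controls against 0.0539 and 0.0925 CPM in shPCBP1. Mal2 and Marveld2 are both parts of the polarized epithelium. Fam83g, a scaffold of casein kinase 1, was at 10.9 and 12 CPM in the controls against the lowest value in both shPCBP1 samples. Meox2, a homeobox factor, was at 9.59 and 8.35 CPM in the controls against the lowest value in both shPCBP1 samples, and Ndn (necdin) was at 6.78 and 6.19 CPM in the controls against the lowest value in both shPCBP1 samples. Prdx4, the peroxiredoxin of the endoplasmic reticulum, was at 7.79 and 8.79 CPM in the controls against 0.0539 and 0.0925 CPM in shPCBP1, and Slc25a13, a mitochondrial aspartate-glutamate carrier, was at 7.26 and 8.35 CPM in the controls against the lowest value in both shPCBP1 samples. The others among the 15 with the highest control levels were Palmd, Cutal, Exph5, Trpa1, Sox6, Micu2 and Chic1. Genes on the X chromosome made up 12 of the 161 genes switched on and 6 of the 38 switched off. Among all 11384 genes tested, 352 lay on that chromosome.

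**Figure D2:**
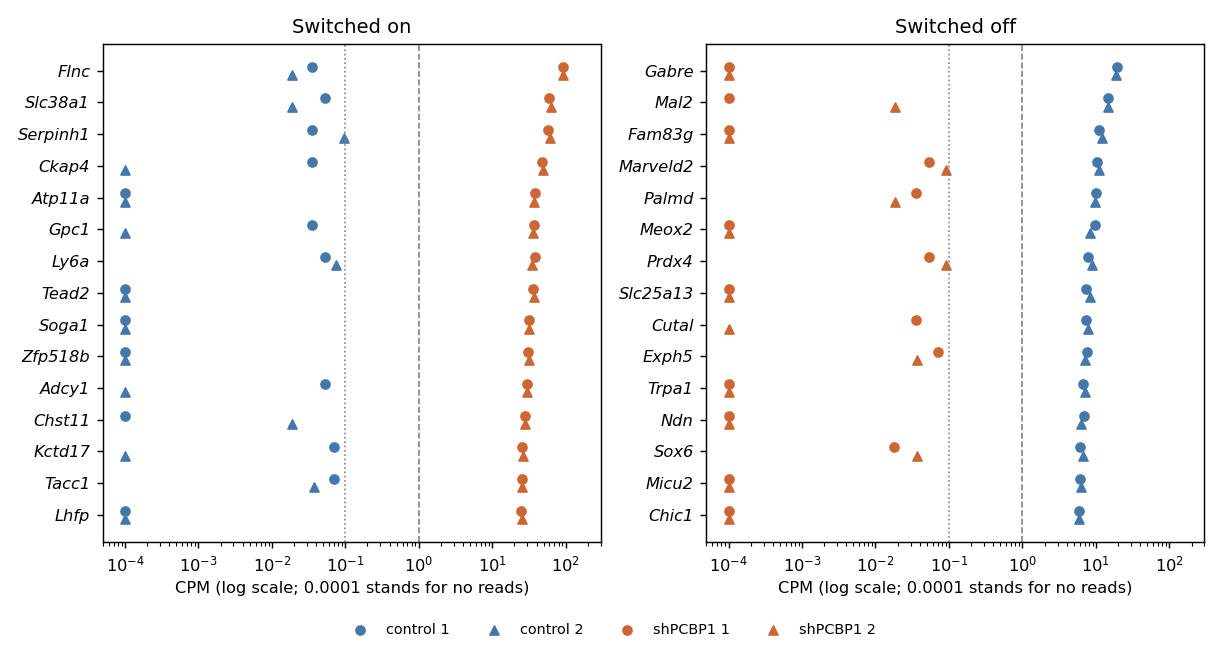
CPM of the 15 genes switched on (left) and the 15 switched off (right) with the highest level in the group that expressed them, on a log axis on which 0.0001 stands for no reads, with 1 point per sample (circles for replicate 1, triangles for replicate 2). The dotted line marks 0.1 CPM and the dashed line 1 CPM, and for each gene the replicates of the expressing group lie almost on top of each other, as for Flnc at 91.2 and 91.4 CPM.

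The promoters of 2 genes switched on and 2 switched off are shown, taken among those at the highest levels with an entry in the table used, together with that of Lifr, because the RNA of these genes appeared or disappeared between the groups. Of the switched genes, 106 of 161 switched on and 27 of 38 switched off had an entry in the RefSeq promoter table of build GRCm38.p6, too few for a comparison of composition between the sets. Each sequence runs 5′ to 3′ on the strand of the gene from 250 bases before its start to 50 bases after it, and capitals mark CG dinucleotides, the sites of DNA methylation. The regions are chr6:29432903-29433202 (plus strand) for Flnc, chr7:99353190-99353489 (minus) for Serpinh1, chr15:7129322-7129621 (plus) for Lifr, chrX:72274672-72274971 (minus) for Gabre and chr11:61684160-61684459 (plus) for Fam83g.
Flnc: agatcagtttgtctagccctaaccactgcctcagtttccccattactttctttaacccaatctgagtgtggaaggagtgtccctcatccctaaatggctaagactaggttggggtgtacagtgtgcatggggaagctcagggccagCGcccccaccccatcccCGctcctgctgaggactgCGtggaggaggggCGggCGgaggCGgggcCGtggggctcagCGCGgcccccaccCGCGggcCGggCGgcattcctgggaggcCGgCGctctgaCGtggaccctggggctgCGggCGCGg
Serpinh1: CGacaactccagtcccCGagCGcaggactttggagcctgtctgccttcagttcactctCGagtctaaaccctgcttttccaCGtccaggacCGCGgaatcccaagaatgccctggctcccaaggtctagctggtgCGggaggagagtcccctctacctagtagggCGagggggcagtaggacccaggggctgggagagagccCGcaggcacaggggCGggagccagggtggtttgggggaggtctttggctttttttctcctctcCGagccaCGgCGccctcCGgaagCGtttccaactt
Lifr: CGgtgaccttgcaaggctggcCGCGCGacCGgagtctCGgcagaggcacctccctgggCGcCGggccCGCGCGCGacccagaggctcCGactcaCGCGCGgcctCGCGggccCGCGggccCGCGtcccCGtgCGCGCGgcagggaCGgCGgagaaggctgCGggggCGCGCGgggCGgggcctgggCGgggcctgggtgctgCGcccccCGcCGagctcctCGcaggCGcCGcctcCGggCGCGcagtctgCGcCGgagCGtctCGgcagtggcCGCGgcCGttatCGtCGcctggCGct
Gabre: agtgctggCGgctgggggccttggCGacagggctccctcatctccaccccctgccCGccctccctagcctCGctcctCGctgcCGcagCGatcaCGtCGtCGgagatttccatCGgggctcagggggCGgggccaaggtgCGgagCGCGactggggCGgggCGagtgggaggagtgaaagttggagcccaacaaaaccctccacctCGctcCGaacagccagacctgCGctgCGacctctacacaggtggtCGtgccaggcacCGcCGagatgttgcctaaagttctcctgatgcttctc
Fam83g: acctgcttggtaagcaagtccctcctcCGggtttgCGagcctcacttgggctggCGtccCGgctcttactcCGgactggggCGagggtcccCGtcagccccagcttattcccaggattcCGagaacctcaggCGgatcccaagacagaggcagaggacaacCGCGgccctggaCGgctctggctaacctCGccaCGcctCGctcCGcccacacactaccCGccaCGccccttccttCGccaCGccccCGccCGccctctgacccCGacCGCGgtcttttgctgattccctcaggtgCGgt
All 5 are rich in CG, with 19 in Flnc, 16 in Serpinh1, 53 in Lifr, 24 in Gabre and 26 in Fam83g, against a median of 7 and a range of 0 to 65 over the 27025 promoters of the table. The letters CACCTG, the E-box read by SNAI and ZEB factors, occur on either strand in 20.05% of those promoters. They occur 1 time each in Gabre and Fam83g and not in the windows of Flnc, Serpinh1 and Lifr, which is a description of letters and not of binding.

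The 4 shPCBP1 lines of the other table took no part in choosing these genes. Levels are not compared between the tables, which were normalized separately, and those lines have no control beside them. Of the 161 genes switched on, 159 are listed there and 152 (94.4%) were at 0.1 CPM or more in all 4 lines. Among all genes at 1 CPM or more in both shPCBP1 samples, the share was 98.2% of 10678. Of the 38 genes switched off, 7 (18.4%) reached 0.1 CPM in all 4 lines, of 10 that are listed there. The share was 30.1% among the 2017 other genes under 0.1 CPM in both shPCBP1 samples. Exceptions lay between the lines themselves. Serpinh1 had 0.0213, 0.0404 and 0.137 CPM in the CT clones 1, 2 and 3, and 11.6 CPM in the unaltered line. The CT clones had been treated with Cas9 but no guide against a gene. Adcy1 was at 0.576, 39.9 and 0.0344 CPM in the CT clones 1, 2 and 3, and at 20.3 CPM in the unaltered line. Msx1, Elfn1, Slc27a6, Cadps and Ccnb1ip1 were also under 0.1 CPM in at least 1 line. Among the genes switched off, Papss2, which makes the sulfate donor PAPS, was the only one at 1 CPM or more in all 4 lines (2.03, 1.37, 1.75 and 1.93 CPM).

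Genes of epithelial junctions and polarity fell more often than they rose. Of 32 tested, 16 fell and 3 rose, with a median log2 difference of −0.53. These counts, like those of every list below, are over members that passed the filter on low values, which a gene low in 1 group passes through the other. Cdh1 (E-cadherin) was at 232 and 237 CPM in the controls against 149 and 149 CPM in shPCBP1 (log2 −0.65, standard error 0.0222, adjusted p = 4.55e-10, limma). Ocln (occludin) was at 18.6 and 18.9 CPM in the controls against 8.31 and 7.82 CPM in shPCBP1, a 2.32-fold fall. Crb3, an apical polarity protein, was at 13.6 and 14.1 CPM in the controls against 3.64 and 3.05 CPM in shPCBP1, a 4.15-fold fall. The falls of Ocln and Crb3 were thus larger than that of Cdh1. Tjp3 (ZO-3) fell 7.21-fold, Spint2, an inhibitor of membrane serine proteases, 3.32-fold, Dsp (desmoplakin) 2.1-fold and Pard6b 2.17-fold. Exceptions included Nectin1, an adhesion receptor that was switched on (the lowest value in both controls against 2.22 and 2.46 CPM in shPCBP1), and the gap junction gene Gja1, which rose 2.48-fold. Jup (plakoglobin), a defining component of desmosomes and adherens junctions, stayed under 1.5-fold from 96.3 and 97.5 CPM in the controls, and Tjp1 (ZO-1) was at 155 and 158 CPM in the controls against 122 and 119 CPM in shPCBP1, also under 1.5-fold.

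The keratins did not move together. Of 7 tested, 2 rose and 2 fell, with a median of −0.07. Krt8 was at 1285 and 1302 CPM in the controls against 1226 and 1243 CPM in shPCBP1 and Krt18, its partner in simple epithelia, at 924 and 936 CPM in the controls against 965 and 997 CPM in shPCBP1, differences under 1.5-fold. Krt7, of ductal epithelia, was at 18.6 and 18.7 CPM in the controls against 1.51 and 1.64 CPM in shPCBP1, an 11.9-fold fall. Krt20 was at 131 and 128 CPM in the controls against 22 and 22.3 CPM in shPCBP1, a 5.85-fold fall. Krt80 rose 2.79-fold and Krt10 1.72-fold. The keratins at the highest levels thus stayed within 1.5-fold, and the called changes were in Krt7, Krt20, Krt80 and Krt10.

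Regulators that keep the epithelial state were divided. Of 14 tested, 6 rose and 2 fell, with a median of 0.32. Ehf, an ETS factor of epithelia, was at 51.2 and 48.9 CPM in the controls against 14 and 12.6 CPM in shPCBP1, a 3.76-fold fall, and Elf3 fell 1.94-fold. Gata3 and Foxa1, both factors of luminal mammary cells, rose 6.45-fold and 6.37-fold. Both started from low levels. Tfcp2l1 rose 3.8-fold, from 3.15 and 3.07 CPM to 11.9 and 11.8 CPM. Luminal mammary markers as a list had 6 of 13 risen and 3 fallen (median 0.08), among them Ly6a (switched on), Wnt4 (16.9-fold higher), Krt7 and Muc1 (1.81-fold lower). Of 4 myoepithelial and basal markers, Lgr5 was switched on, and Mylk and Itgb4 fell.

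Mesenchymal markers and EMT factors held the largest share of risen genes among the lists. Of 31 tested, 23 rose and 2 fell, with a median of 1.42. Fn1 (fibronectin) was at 10.8 and 10.5 CPM in the controls against 117 and 119 CPM in shPCBP1, an 11-fold rise (log2 3.45, standard error 0.0344, adjusted p = 1.09e-13, limma). Vim (vimentin) was at 474 and 496 CPM in the controls against 1089 and 1122 CPM in shPCBP1, a 2.28-fold rise. Cdh2 (N-cadherin) was at 21.6 and 21.8 CPM in the controls against 58.1 and 58.3 CPM in shPCBP1, a 2.68-fold rise. These rises came beside a fall of Cdh1 that left it at 149 and 149 CPM. The intermediate filament gene Nes (nestin) was at 0.0532 and 0.132 CPM in the controls against 268 and 278 CPM in shPCBP1, and it lay just outside the rule for switched on genes because 1 control exceeded 0.1 CPM. Among the transcription factors, Snai1 was at 0.230 and 0.321 CPM in the controls against 3.39 and 3.92 CPM in shPCBP1, a 13.3-fold rise, and Snai2 at 0.319 and 0.415 CPM in the controls against 1.67 and 1.66 CPM in shPCBP1, a 4.54-fold rise. Zeb2 rose 2.95-fold, whereas Zeb1 was at 23.2 and 21.8 CPM in the controls against 31.3 and 29.9 CPM in shPCBP1, under 1.5-fold. Twist2, Mmp2 (gelatinase A) and Plau (urokinase) were switched on. Fgf2 and Tcf4 were the members that fell. None of the 13 fibroblast markers passed the filter, with 6 of them listed, and none of the 10 endothelial markers, with 7 listed. Of 4 leukocyte markers tested 1 (Laptm5) was switched on, at 1.29 and 1.28 CPM, and of 3 adipocyte markers Pparg rose and Plin4 fell.

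**Figure D3:**
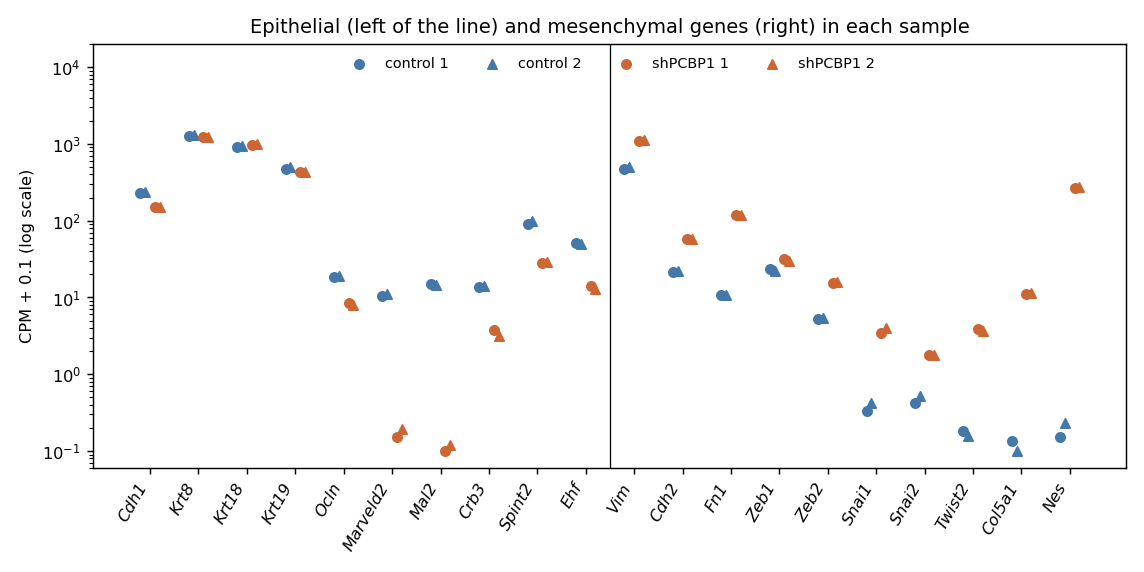
CPM + 0.1 on a log axis for 10 epithelial genes (left of the line) and 10 mesenchymal genes (right), with 1 point per sample and the controls drawn to the left of shPCBP1 within each gene. Krt8 and Krt18 lie level in all 4 samples while Marveld2 and Mal2 drop to the floor, and on the right the points of Fn1, Snai1 and Nes rise by more than those of Vim and Zeb1.

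Genes of actin crosslinking and adhesion were among the cytoskeleton genes that rose. Of 28 actin, contractile and filamin genes tested, 14 rose and 3 fell (median 0.56). Beside Flnc, Csrp1, an actin-associated LIM protein, was at 23.4 and 23.4 CPM in the controls against 63.7 and 61.1 CPM in shPCBP1, a 2.67-fold rise. Zyx (zyxin), Vcl (vinculin) and Actn1 (alpha-actinin) rose 2.55-fold, 2.21-fold and 2.17-fold, and Actg1 (gamma-actin) 1.86-fold. Mylk, the kinase of the myosin light chain, was at 54.7 and 53 CPM in the controls against 4.93 and 5.52 CPM in shPCBP1, a 10.3-fold fall in the opposite direction. Cnn3 and Fhl2 were the other members that fell. Of 28 targets of YAP and TEAD, 6 rose and 3 fell (median 0.09). Together these were 32.1% of the list, about the share called among all genes (31.1%). The classical targets Ankrd1 and Ctgf rose 1.97-fold and 1.58-fold, and Ptpn14 fell 1.73-fold.

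Most collagen genes tested rose, while a list of basement membrane genes, which takes in collagen IV, was divided. Of 13 collagen genes tested, 9 rose and 2 fell (median 1.39). Col5a1, of fibrillar collagen V, was switched on (0.0355 CPM and the lowest value in the controls against 11.1 and 11.2 CPM in shPCBP1). Col12a1, a fibril-associated collagen, was at 0.195 and 0.283 CPM in the controls against 9.46 and 9.63 CPM in shPCBP1, a 39.96-fold rise. Col6a1, of the microfibrillar collagen VI, was at 4.87 and 5.49 CPM in the controls against 30.7 and 29.9 CPM in shPCBP1, a 5.86-fold rise, and Col6a2 rose 10.3-fold. The genes of basement membrane collagen IV also rose, Col4a1 by 2.32-fold and Col4a2 by 2.57-fold. The falls were in Col15a1 and Col27a1. Of 18 laminin, nidogen and other basement membrane genes tested, 7 rose and 7 fell (median −0.02). Fbln2 (fibulin-2) was at 40.8 and 40.6 CPM in the controls against 423 and 423 CPM in shPCBP1, a 10.4-fold rise. Smoc1 was at 0.159 and 0.113 CPM in the controls against 19.4 and 19.6 CPM in shPCBP1, and Hspg2 (perlecan) rose 3.26-fold. On the other side, Agrn (agrin) was at 406 and 409 CPM in the controls against 121 and 118 CPM in shPCBP1, a 3.42-fold fall, and the laminin chains Lamb3, Lamc1 and Lama5 fell 2.36-fold, 2.08-fold and 1.9-fold. Perlecan and collagen IV therefore moved opposite to agrin and the laminin chains within the same list.

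Matrix receptors and proteases changed in both directions. Of 16 integrins tested, 5 rose and 3 fell (median 0.41). Itga5, the receptor chain for fibronectin, was at 2.32 and 2.68 CPM in the controls against 25.6 and 25.9 CPM in shPCBP1, a 10.3-fold rise. Itgb4, of the hemidesmosome, was at 23.8 and 24 CPM in the controls against 9.03 and 8.32 CPM in shPCBP1, a 2.75-fold fall, and the collagen-binding chains Itga2 and Itga1 fell 2.47-fold and 2.3-fold. Of 31 matrix proteases and inhibitors, 10 rose and 8 fell (median 0.18). Serpinb9b rose 37.3-fold, from 3.95 and 3.68 CPM to 146 and 139 CPM. Of the 8 falls, 5 were the neighbouring Serpina1a to Serpina1e genes of alpha-1-antitrypsin, with Serpina1b at 50.6 and 51.6 CPM in the controls against 1.56 and 1.22 CPM in shPCBP1. These copies are near-identical, so that how reads divide among them is uncertain.

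Genes that build or sulfate proteoglycans rose more often than they fell. Of 28 tested, 10 rose and 2 fell (median 0.34), and 5 of them were switched on. Chst11, a chondroitin sulfotransferase, was at the lowest value and 0.0190 CPM in the controls against 28.2 and 28.1 CPM in shPCBP1. Hs6st2, a heparan sulfate 6-O-sulfotransferase, was at the lowest value in both controls against 17.4 and 18 CPM in shPCBP1. Chst15, which adds a further sulfate to chondroitin, was at 1.68 and 1.87 CPM in the controls against 43.3 and 43.9 CPM in shPCBP1, a 24.6-fold rise. Gpc1, Hs3st3b1 and Sulf2, the extracellular sulfatase that trims heparan sulfate, were also switched on. The members that fell were Gpc6 and Has1, a hyaluronan synthase.

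In the Wnt pathway, ligands, receptors and a feedback gene were among those that rose. Of 25 tested, 12 rose and 4 fell (median 0.55). Wnt7a was at 0.142 and 0.0567 CPM in the controls against 8.28 and 7.47 CPM in shPCBP1 and Wnt4 at 0.354 and 0.811 CPM in the controls against 9.82 and 9.81 CPM in shPCBP1. Lgr6 and Lgr5, receptors for R-spondin, were switched on, with Lgr6 at 0.0886 and 0.0567 CPM in the controls against 5.66 and 5.53 CPM in shPCBP1. Axin2, a direct target and feedback inhibitor of beta-catenin signalling, was at 0.513 and 0.396 CPM in the controls against 6.59 and 6.3 CPM in shPCBP1, a 14.2-fold rise. Fzd2 rose 6.06-fold and Tcf7 6.51-fold, and Fzd9 was switched on. Against this direction, Fzd8 was switched off (1.54 and 1.32 CPM in the controls against the lowest value in both shPCBP1 samples) and Lgr4 and Lrp5 fell 2.86-fold and 2.18-fold.

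In the TGF-beta and BMP pathway several ligands rose and several receptors fell. Of 40 genes tested, 15 rose and 7 fell (median 0.25). Bmp2 was switched on (the lowest value in both controls against 4.59 and 4.29 CPM in shPCBP1). Tgfb2 was at 1.03 and 0.905 CPM in the controls against 5.56 and 5.88 CPM in shPCBP1, a 5.92-fold rise, and Tgfb1 rose 3.96-fold. Inhbb, a chain of activin B, was at 4.67 and 4.9 CPM in the controls against 40.4 and 40.3 CPM in shPCBP1, an 8.43-fold rise. Id1 and Id3, targets of BMP signalling, rose 2.45-fold and 6.83-fold. Among the receptors, Tgfbr3 (betaglycan) was at 16.9 and 18.4 CPM in the controls against 1.81 and 1.42 CPM in shPCBP1, a 10.9-fold fall, Tgfbr1 fell 2.12-fold, and Acvr1 and Acvr2a fell 1.58-fold and 1.53-fold. Bmp4 was the ligand that fell, by 4.35-fold, and Smad2 fell 2.06-fold.

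The LIF receptor list was called about as often as all genes (31.1%). Of 26 genes of the LIF receptor, the gp130 family and the STAT3 response tested, 5 rose and 3 fell, together 30.8% (median 0.28). Without the 20-Mb windows whose genes shifted together these counts were 3 and 1 of 20, an alternative chosen after seeing the data. Il11, a cytokine that signals through gp130, was at 0.124 and 0.170 CPM in the controls against 6.36 and 6.62 CPM in shPCBP1, a 44.2-fold rise. Cebpd rose 3.43-fold and Ccnd1 (cyclin D1) 1.97-fold. Socs3, the feedback inhibitor of STAT3, was at 42.9 and 42 CPM in the controls against 62.4 and 63.9 CPM in shPCBP1, and Il6st, which encodes gp130, at 59.9 and 58.7 CPM in the controls against 84.5 and 82.3 CPM in shPCBP1. Stat3 itself was at 24.9 and 23.5 CPM in the controls against 31.6 and 30.6 CPM in shPCBP1. All 3 passed the test in the upward direction but stayed under 1.5-fold. Jak2 and Tyk2, kinases bound to these receptors, fell 1.69-fold and 1.92-fold.

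Other secreted ligands and receptors changed in both directions. Of 43 growth factor and cytokine ligands tested, 18 rose and 11 fell (median 0.25). Bdnf, a neurotrophin, was at 3.38 and 3.77 CPM in the controls against 34.1 and 34.7 CPM in shPCBP1, a 9.63-fold rise. Fgf1 was at 46.3 and 44.7 CPM in the controls against 3.46 and 3.27 CPM in shPCBP1, a 13.5-fold fall. Cxcl17 rose 12.4-fold, Ccl2, a monocyte chemoattractant, 3.67-fold, and the EGF receptor ligand Areg (amphiregulin) 3.05-fold. Il33 fell 2.37-fold. Of 21 growth factor receptors, 6 rose and 4 fell (median −0.04), with the collagen receptor Ddr2 rising 5.23-fold and its relative Ddr1 falling 1.75-fold. Erbb3 was at 6.96 and 7.45 CPM in the controls against 1.16 and 1.11 CPM in shPCBP1, a 6.34-fold fall, and Egfr fell 1.64-fold. Of 12 genes of the IGF system, 2 rose and 3 fell (median 0.05). Igfbp4 was at 97.5 and 105 CPM in the controls against 0.287 and 0.0925 CPM in shPCBP1, and Igfbp3, another binding protein of the same growth factors, was at 11.2 and 12 CPM in the controls against 59.9 and 61.9 CPM in shPCBP1, a 5.25-fold rise. Igf2r, which removes IGF2 and sorts lysosomal enzymes, rose 10.5-fold. Of 18 genes of the Notch pathway, 6 rose and 5 fell (median −0.09). The receptors Notch1 and Notch2 and the ligand Jag1 fell 1.96-fold, 1.6-fold and 1.85-fold, and Dlk2 rose 7.44-fold.

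Guidance genes, which steer cells and axons, changed often in both directions. Of 41 semaphorins, plexins, ephrins and related genes tested, 15 rose and 11 fell (median 0.21). Epha2, an ephrin receptor, was at 1.93 and 2.13 CPM in the controls against 186 and 192 CPM in shPCBP1, a 93.1-fold rise. Sema4f was switched on (0.0532 and 0.0755 CPM in the controls against 16.6 and 15.6 CPM in shPCBP1), as was Ntn1 (netrin-1). Plxna4, a semaphorin receptor, was at 0.248 and 0.170 CPM in the controls against 9.18 and 8.65 CPM in shPCBP1, a 42.7-fold rise, and Nrp1 (neuropilin-1) rose 3.57-fold. Of the 11 that fell, 6 were semaphorins, with Sema4a at 18.1 and 17.4 CPM in the controls against 6.02 and 5.53 CPM in shPCBP1, a 3.07-fold fall. Slit3 went from 1.33 and 0.962 CPM to the lowest value in both shPCBP1 samples, and its receptor Robo1 fell 2.93-fold.

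Transcription factors of development were switched on in number. Of 85 homeobox and lineage factors tested, 34 rose and 15 fell (median 0.28), and 13 were switched on and 2 switched off. Meox2, described above, is not in that list. Hoxa10 was at the lowest value in both controls against 9.44 and 8.65 CPM in shPCBP1, Hoxa7 at 0.0178 and 0.0190 CPM in the controls against 4.42 and 4.3 CPM in shPCBP1, and Hoxa5 and Hoxa9 were also switched on. Hoxa2 and Hoxa3 rose. While these Hoxa genes rose, in the Hoxb cluster Hoxb3, Hoxb4, Hoxb5, Hoxb6, Hoxb8 and Hoxb13 fell and Hoxb7 rose. Tbx15 was at 0.0178 and 0.0190 CPM in the controls against 4.75 and 4.92 CPM in shPCBP1, Foxf1, a mesenchymal forkhead factor, was at the lowest value in both controls against 3.4 and 3.38 CPM in shPCBP1, and Tbx20, Msx1, Sox12, Pax3 and Lhx6 were switched on at lower levels. Sox6 was switched off (6.11 and 6.73 CPM in the controls against 0.0180 and 0.0371 CPM in shPCBP1), as was Foxr2. Lmx1a was at 6.97 and 6.58 CPM in the controls against 2.28 and 2.25 CPM in shPCBP1, a 2.99-fold fall, and Hnf4a was among the others that fell.

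Cholesterol synthesis was the list with the largest share of fallen genes. Of 26 tested, 15 fell and 1 rose, with a median of −0.62. Hmgcs1, which makes HMG-CoA, was at 195 and 194 CPM in the controls against 82.2 and 81.2 CPM in shPCBP1, a 2.38-fold fall. Fdft1 (squalene synthase) was at 31.4 and 30.6 CPM in the controls against 14 and 13.1 CPM in shPCBP1, a 2.29-fold fall, and Lss, which closes the sterol rings, fell 2.12-fold. Fdps, which makes farnesyl diphosphate, fell 2.12-fold, and Insig1, which retains the SREBP regulators in the endoplasmic reticulum, fell 2.12-fold. Srebf2, which encodes SREBP2, the regulator of these genes, was at 183 and 184 CPM in the controls against 186 and 188 CPM in shPCBP1, and did not pass the test. Of 15 genes of fatty acid synthesis, 2 rose and 5 fell (median −0.29). Scd2, a desaturase, was at 2240.5 and 2237 CPM in the controls against 933 and 934 CPM in shPCBP1, a 2.4-fold fall, and Fads1 and Fads2 fell 2.24-fold and 1.76-fold. All 3 lie on chromosome 19, where 36.8% of the genes tested fell. Fasn, the fatty acid synthase, was at 145 and 144 CPM in the controls against 249 and 251 CPM in shPCBP1, a 1.73-fold rise.

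Genes of glucose metabolism fell at several steps. Of 23 genes of glycolysis and lactate transport tested, 7 fell and 3 rose (median −0.45). Slc2a1 (GLUT1) was at 67.2 and 67.8 CPM in the controls against 27.9 and 28.8 CPM in shPCBP1, a 2.38-fold fall. Pdk1, which holds back pyruvate dehydrogenase, was at 76.1 and 80.3 CPM in the controls against 20.2 and 20.9 CPM in shPCBP1, a 3.81-fold fall. Aldoc, Eno1 and Tpi1 fell 8.95-fold, 1.84-fold and 1.72-fold. Among the phosphofructokinases, the liver form Pfkl fell 2.36-fold while the platelet form Pfkp was at 0.353 and 0.746 CPM in the controls against 24.5 and 24.2 CPM in shPCBP1, a 44.3-fold rise. The neuronal enolase Eno2 was likewise at 0.0355 and 0.132 CPM in the controls against 2.35 and 2.38 CPM in shPCBP1.

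Iron genes were not called more often than all genes. Of 29 tested, 4 rose and 4 fell, Pcbp1 among them (median 0.00). Trf, which encodes the iron carrier transferrin, was at 91.3 and 91.8 CPM in the controls against 0.358 and 0.351 CPM in shPCBP1, a 258-fold fall. Hmox1, which releases iron from haem, was at 10.3 and 9.5 CPM in the controls against 42.3 and 44.7 CPM in shPCBP1, a 4.38-fold rise. The transferrin receptor Tfrc was at 224 and 227 CPM in the controls against 245 and 242 CPM in shPCBP1. Of the ferritin chains, Fth1 was at 395 and 506 CPM in the controls against 535 and 531 CPM in shPCBP1, and Ftl1 at 1835 and 1777 CPM in the controls against 1663 and 1651 CPM in shPCBP1. These defining genes of iron uptake and storage stayed under 1.5-fold. Of 30 genes of glutathione metabolism and NRF2 targets, 9 rose and 4 fell (median −0.01). Gclc, of glutathione synthesis, rose 1.89-fold and Slc7a11, the cystine transporter, 2.0-fold, while Cat (catalase) fell 2.43-fold. Of 29 genes of serine synthesis, transsulfuration and the ATF4 response, 6 rose and 5 fell (median −0.12). Atf5 fell 2.56-fold and Cbs rose 7.4-fold.

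Genes of retinoic acid metabolism changed at uptake, synthesis and breakdown. Of 11 genes tested, 6 rose and 1 fell (median 0.60). Stra6, the receptor that takes up retinol, was at 3.96 and 3.34 CPM in the controls against 22.5 and 20.7 CPM in shPCBP1, a 5.91-fold rise. Rdh10, which oxidizes retinol, was at 13.8 and 14.9 CPM in the controls against 56.5 and 59.6 CPM in shPCBP1, a 4.05-fold rise. Cyp26b1, which degrades retinoic acid, was at 2.67 and 2.47 CPM in the controls against 32 and 34.1 CPM in shPCBP1, a 12.9-fold rise. Dhrs3, which turns retinaldehyde back to retinol, was at 27.6 and 27.9 CPM in the controls against 8.51 and 9.24 CPM in shPCBP1, a 3.12-fold fall.

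Transporters and channels changed in both directions. Of 33 amino acid and monocarboxylate transporters tested, 9 rose and 8 fell (median 0.10). Beside Slc38a1, Slc7a4 and Slc38a4 were switched on. Slc7a5, the transporter LAT1, was at 65.7 and 64.1 CPM in the controls against 179 and 179.6 CPM in shPCBP1, a 2.77-fold rise. Slc16a12 was at 80.7 and 78.2 CPM in the controls against 0.502 and 0.499 CPM in shPCBP1, a 159-fold fall. With a pseudocount of 1 CPM, the transporters that fell went from 8 to 4. Of 52 ion channel subunits, 14 rose and 17 fell (median 0.00). Kcnk5, a potassium leak channel, was at 41.4 and 41 CPM in the controls against 0.161 and 0.166 CPM in shPCBP1, a 251-fold fall. Scn8a, a voltage-gated sodium channel, was at 98.5 and 99.1 CPM in the controls against 11 and 11.1 CPM in shPCBP1, an 8.97-fold fall, and Aqp1, a water channel, was at 88.8 and 86 CPM in the controls against 11.6 and 10.6 CPM in shPCBP1, a 7.87-fold fall. Clca3b was at 0.159 and 0.189 CPM in the controls against 5.86 and 5.93 CPM in shPCBP1. Gabre, Trpa1 and Cacna1e were switched off and Kcnj4 was switched on. With a pseudocount of 1 CPM, the channels that rose went from 14 to 9.

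Apart from the CDK inhibitor list, lists of the basal machinery held a smaller share of called members than all genes tested (31.1%). The shares ran from 6.58% for ribosomal proteins to 18.3% for DNA replication and mitosis. The shares that rose were near that of all genes (16%) for proteasome subunits (16.3%) and for DNA replication and mitosis (16.7%). Of 76 cytosolic ribosomal protein genes tested, 4 rose and 1 fell (median 0.04). Of 75 nuclear genes of oxidative phosphorylation, 4 rose and 4 fell (median 0.08). Of 70 PCBP, hnRNP and SR splicing genes, 7 rose and 3 fell (median 0.05), the last including Pcbp1 itself, and the RNA-binding proteins Khdrbs3 and Elavl2 were switched on. The 43 proteasome subunits had 7 that rose and 0 that fell (median 0.29), among them the immunoproteasome subunit Psmb10 (2.44-fold), Psma3 (2.11-fold) and Psmd6 (1.92-fold). Of 60 genes of DNA replication and mitosis, 10 rose and 1 fell (median 0.16). Mcm5, of the replicative helicase, was at 27.6 and 28.2 CPM in the controls against 68.6 and 71.3 CPM in shPCBP1, a 2.51-fold rise, and Ccne1 and Foxm1 rose 2.52-fold and 2.06-fold. Mki67, a proliferation marker, was at 514 and 505 CPM in the controls against 534 and 539 CPM in shPCBP1. That difference stayed under 1.5-fold. Of 30 CDK inhibitors, G1 cyclins and p53 targets, 6 rose and 3 fell (median −0.11), together 30%, about as often as all genes. Cdkn1a (p21) was at 55 and 56.8 CPM in the controls against 123 and 122 CPM in shPCBP1, a 2.19-fold rise, and Eda2r was at 0.354 and 0.170 CPM in the controls against 10.3 and 9.96 CPM in shPCBP1, a 38.6-fold rise. Cdkn2a fell 2.17-fold.

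Interferon and surface genes split within their families. Of 25 genes of the interferon response and antigen presentation tested, 10 rose and 6 fell (median 0.19). The class I genes H2-D1 and H2-K1 rose 7.64-fold and 3.8-fold, from 6.73 and 5.41 CPM to 22.6 and 23.4 CPM for H2-K1, while H2-T23 fell 2.93-fold. Ifit2 was at 30.6 and 30.9 CPM in the controls against 9.69 and 10.1 CPM in shPCBP1, a 3.11-fold fall, and Ifit3 fell 5.68-fold. Class I genes, and Ifit3 with its copy Ifit3b, resemble each other so closely that reads may be shared between them. Of the 6 that fell, 4 (Ifit2, Ifit3, Ifit3b and Cd274) lie on chromosome 19, where 36.8% of the genes tested fell, and without windows that shifted together 2 of 20 fell. Of 20 S100 proteins and annexins, 4 rose and 4 fell (median −0.20). S100a4, a calcium-binding protein linked to cell motility, was at 62.8 and 60.4 CPM in the controls against 319 and 313 CPM in shPCBP1, a 5.14-fold rise, and S100a6 was at 1358 and 1305 CPM in the controls against 643 and 617 CPM in shPCBP1, a 2.11-fold fall. Anxa4 fell 2.84-fold.

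**Figure D4:**
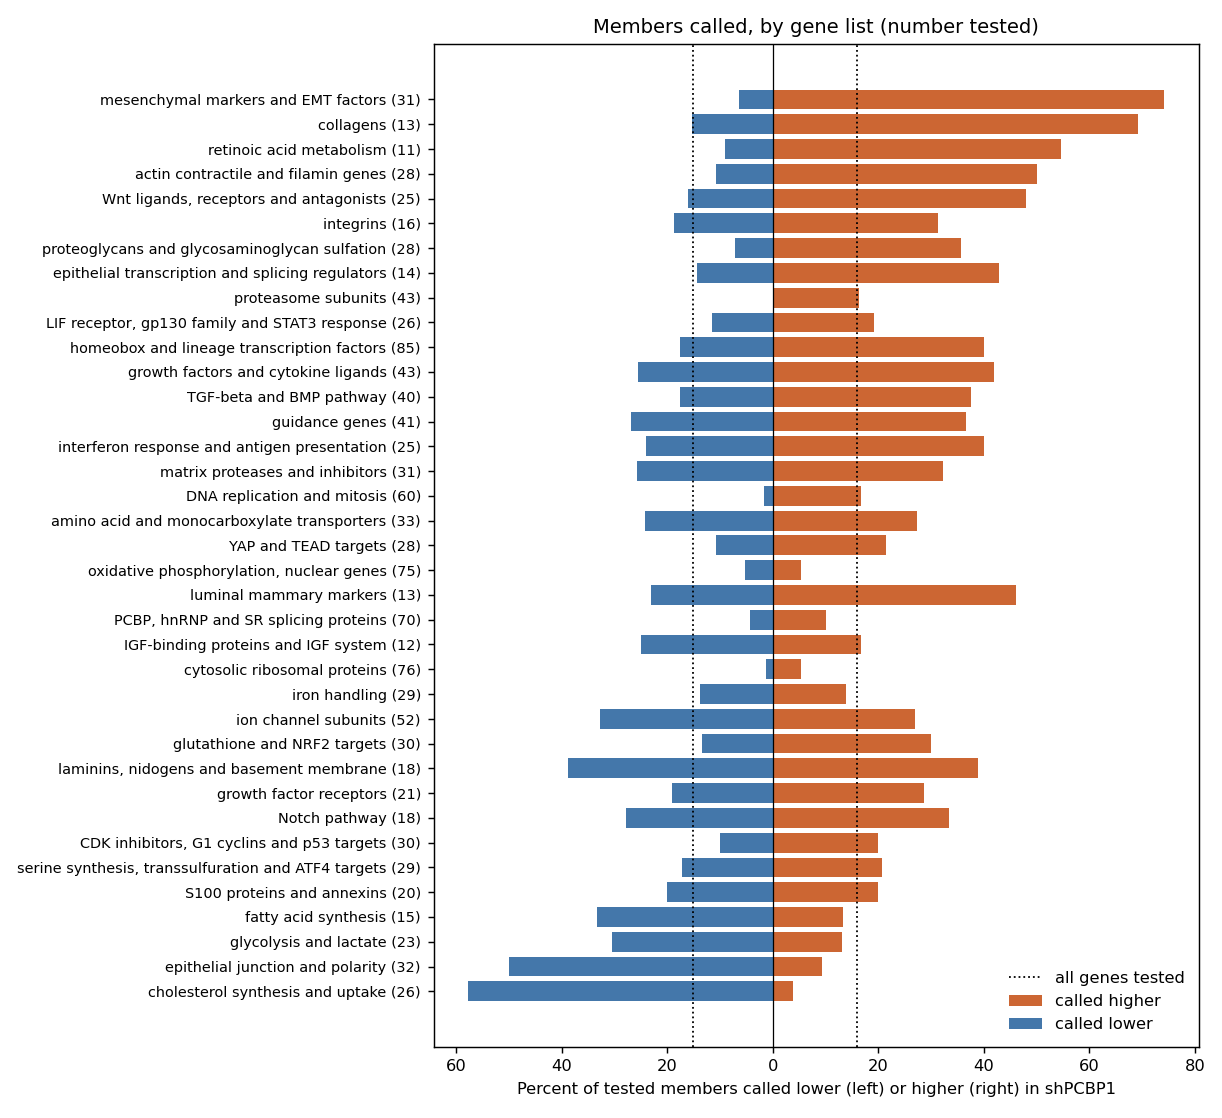
Percent of the tested members of each of 37 gene lists that rose (bars to the right) or fell (bars to the left) in shPCBP1, with the number tested in parentheses, ordered by the median log2 difference. The dotted lines mark the shares over all genes tested (16% and 15.1%). Mesenchymal markers and collagens reach furthest to the right, cholesterol synthesis and epithelial junctions furthest to the left, and ribosomal and oxidative phosphorylation genes stay well inside both lines.

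Among genes at 10 CPM or more in both groups, the largest rises after Fn1 and Fbln2 were in Igfbp3, S100a4, the gene listed as RP23-253N17.1, Ugt1a7c, Rdh10, Myo10, Fgd3 and Ccl2, with Ccl2 the smallest of them at 3.67-fold. Myo10, a myosin that carries integrins to the tips of filopodia, was at 26.5 and 28.4 CPM in the controls against 108 and 113 CPM in shPCBP1. Fgd3, an exchange factor for CDC42, was at 28.1 and 28.4 CPM in the controls against 108 and 113 CPM in shPCBP1. The largest falls after Pcbp1 and Scn8a were in Ugt2b34, Aqp1, Krt20, Ddit4l, Gcnt1, Atp2b4, Adora1 and Slco4a1. Slco4a1, an organic anion transporter, was at 302 and 299.7 CPM in the controls against 57.6 and 58.2 CPM in shPCBP1, a 5.2-fold fall. Gcnt1, which branches mucin-type glycans, was at 85.2 and 83.6 CPM in the controls against 15.5 and 15.4 CPM in shPCBP1, a 5.46-fold fall. For the UGT genes Ugt1a7c and Ugt2b34, which have near-identical copies, how reads divide is uncertain.

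Families were also formed without a choice of members, as the genes whose symbols share their letters up to the first digit. There were 133 such families with at least 10 genes tested, holding 3887 genes. The highest shares that rose were in Col (9 of 14, which takes in Col4a3bp, not a collagen), Dusp (8 of 18), genes whose symbol starts with P alone (4 of 10, unrelated genes), Tnfrsf (4 of 10) and Utp (4 of 10). The Dusp phosphatases inactivate MAP kinases. Dusp2 was switched on (the lowest value in both controls against 4.35 and 4.99 CPM in shPCBP1) and Dusp8 was at 0.549 and 0.717 CPM in the controls against 8.98 and 7.91 CPM in shPCBP1, a 13.3-fold rise, whereas Dusp6, a feedback target of ERK, was at 73.9 and 74.9 CPM in the controls against 57.7 and 59.2 CPM in shPCBP1, under 1.5-fold. In Tnfrsf, Tnfrsf12a, the receptor for TWEAK, rose 2.23-fold.

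The highest shares that fell were in Hist (14 of 20), Cyp (10 of 17), Akap (7 of 12), Tspan (7 of 13) and Sema (6 of 12). Among the histone genes, Hist1h1c was at 40.4 and 41.4 CPM in the controls against 11.8 and 12.6 CPM in shPCBP1, a 3.34-fold fall, and Hist2h2be was at 27.7 and 26.1 CPM in the controls against 6.07 and 5.78 CPM in shPCBP1, a 4.54-fold fall. Many histone genes are near-identical copies, so that their division of reads is uncertain. Of the Cyp genes, Cyp2s1 was at 169.9 and 167 CPM in the controls against 81.6 and 79.99 CPM in shPCBP1, a 2.09-fold fall, Cyp2c65 and Cyp2c68 were switched off, and Cyp2a5 was switched on (the lowest value in both controls against 6.31 and 5.97 CPM in shPCBP1). The AKAP proteins anchor protein kinase A, and Akap12 was at 145 and 145 CPM in the controls against 59.3 and 56.9 CPM in shPCBP1, a 2.5-fold fall, with Akap1 rising 1.94-fold. Of the tetraspanins, Tspan15 was at 57.7 and 58.7 CPM in the controls against 23.9 and 22.7 CPM in shPCBP1, a 2.5-fold fall. In 6 families, among them Ints (14 genes) and Ndufa (13 genes), no member was called.

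Changes gathered by chromosome. On chromosome 19, 151 of 410 genes tested fell (36.8%) and 27 rose (6.59%), with a median log2 difference of −0.37. On chromosome 15, 126 of 440 rose (28.6%) and 31 fell (7.05%), with a median of 0.31. Chromosome 11 had 236 of 943 risen (25.0%) and 77 fallen (8.17%), with a median of 0.27. Whole chromosomes thus leaned in 1 direction. Of 136 windows of 20 Mb with at least 20 genes tested, 12 had a median above 0.3 and 10 a median below −0.3. The highest were both on chromosome 14, in its first 40 Mb, where 58 of 85 genes between 20 and 40 Mb rose and 3 fell (median 0.80). The first 40 Mb of chromosome 4 had medians of 0.65 and 0.71. The lowest median, −0.89, was at the end of chromosome 18 from 80 Mb, where 14 of 22 genes fell. Between 20 and 40 Mb of chromosome 19 the median was −0.61, with 44 of 83 genes fallen. Genes switched on made up 161 of the 11384 genes tested and lay on every chromosome compared, but not evenly. They were 18 of 921 genes tested on chromosome 2, 15 of 943 on chromosome 11 and 13 of 856 on chromosome 7. Chromosomes 15 (12 of 440), X (12 of 352) and 14 (10 of 373) held more for their size, and chromosomes 17 (2 of 560) and 13 (1 of 430) fewer. The log2 difference had a Spearman correlation of 0.085 with the GC content of the gene and of −0.039 with its length over 11242 genes, which share their 4 libraries and are not independent.

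**Figure D5:**
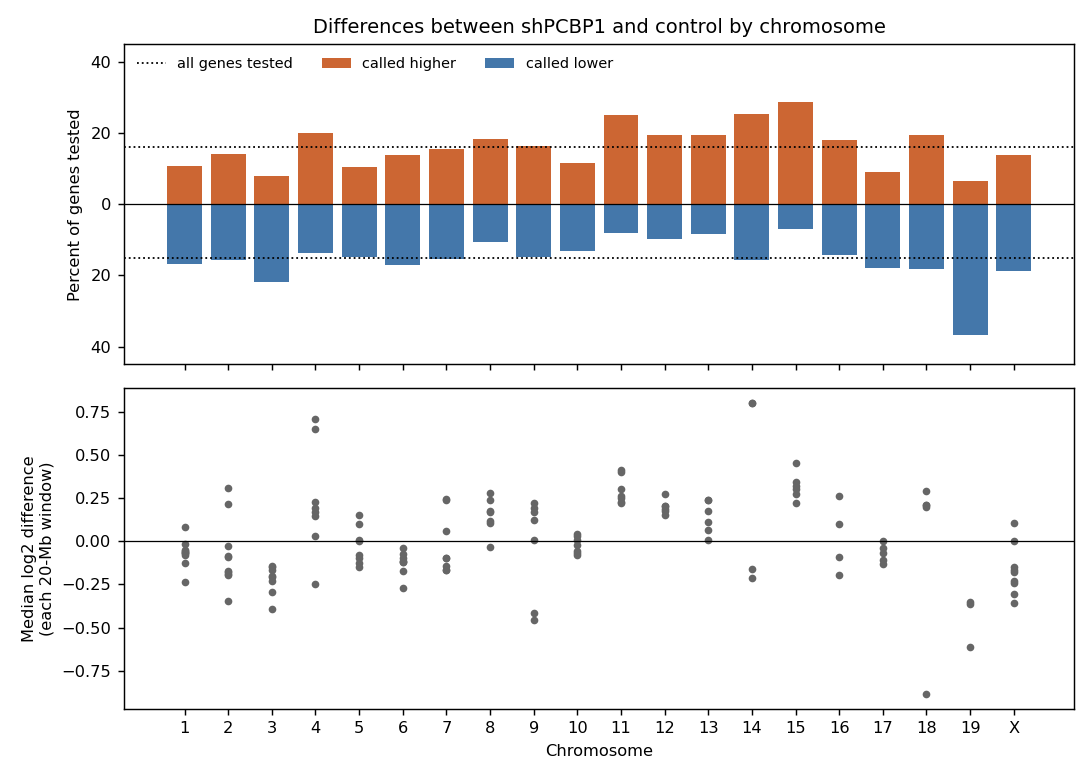
Top, percent of the genes tested on each chromosome that rose (bars upward) or fell (bars downward) in shPCBP1, with dotted lines at the shares over all genes tested. Bottom, the median log2 difference of each 20-Mb window with at least 20 genes tested, 1 point per window, against its chromosome. Chromosome 19 stands out for falls (36.8%) and chromosomes 15, 11 and 14 for rises, and the points of the first windows of chromosomes 4 and 14 lie highest, at up to 0.80, while the last of chromosome 18 lies at −0.89.

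A centring of each gene on the median of its 20-Mb window, chosen after seeing the data, left 2967 genes called, 1408 higher and 1559 lower. Most list counts stayed within 1.5 times of those above, 55 of the 63 counts of at least 3 called members. Among the 8 that did not, risen proteasome subunits went from 7 to 3, risen genes of DNA replication and mitosis from 10 to 6, and risen genes of oxidative phosphorylation from 4 to 0. Smaller moves were seen for fallen genes of oxidative phosphorylation (4 to 2), risen ribosomal proteins (4 to 2), risen S100 proteins and annexins (4 to 2), and fallen Notch (5 to 3) and serine synthesis genes (5 to 3). Leaving out the windows with medians beyond 0.3 in size, also chosen after seeing the data, removed members from the lists and kept 50 of the 63 counts within 1.5 times. Fallen genes went from 6 to 2 for interferon and antigen presentation, from 5 to 2 for fatty acid synthesis, from 7 to 4 for TGF-beta and BMP, from 8 to 4 for amino acid and monocarboxylate transporters, from 5 to 3 for Notch, from 4 to 2 for oxidative phosphorylation and from 3 to 1 for the LIF receptor list. Risen genes went from 6 to 3 for Notch, from 5 to 3 for the LIF receptor list, from 9 to 5 for the transporters, from 7 to 4 for splicing proteins, and from 4 to 2 for ribosomal proteins and for S100 proteins and annexins. The counts of at least 3 mesenchymal, collagen, junction and cholesterol genes stayed within 1.5 times under both corrections.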

How the data were processed

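Values were analysed for 2 control and 2 shPCBP1 samples of NMuMG cells. The authors aligned the reads to GRCm38 with Bowtie2, quantified genes and ran DESeq2 in Partek Flow, and deposited CPM for each sample with 0.0001 in place of no reads. The same table gives the authors' group means and a fold column, which were not used. Totals were implied by the smallest step of each sample. Of values standing for 1 to 10 reads, 93.4% to 94.7% were whole within 0.05 reads, and fewer at higher levels, so that whole reads were not recovered, no count test was run, and limma took the place of edgeR. The genes that reached a mean of 0.5 CPM were fitted as log2(CPM + 0.1) with limma 3.58.1 (R 4.3.3, mean-variance trend), and p-values were adjusted by Benjamini-Hochberg. Replicate numbers did not pair the samples (correlation of deviations 0.051) and were not used as a block. Plots used matplotlib 3.10.9 (Python 3.11.15). The fit was also run on simulated data with independent noise in each sample, a setting that cannot show how separate cultures vary.

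The members and the gene lists were chosen with earlier results of these data known. Named are Pcbp1, Pcbp2, Fam3c and Lifr, the 15 genes switched on and the 15 off with the highest levels, the 10 largest rises and falls at 10 CPM or more in both groups, up to 3 called members in each direction for each list plus members that define its function, and the 5 symbol families with the highest share in each direction. Other genes were named after their values were seen. Gene coordinates are from the annotation of GRCm38, and promoter sequences from RefSeq (8442 of the 11247 genes tested on assembled chromosomes matched). Alternatives were another pseudocount, filter, scaling, threshold, GC correction, replicate block, leaving out each sample, and 2 corrections for position chosen after seeing the data. A few named genes are not reported here.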

Additional observations from a re-analysis of the deposited data

How the results depend on the processing

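The count of genes past the test stayed within 1.5 times of 9123 under every alternative run, from 7362 with a mean of at least 5 CPM to 10365 with no filter on low values. It was 9235 with the replicate block and 8011 to 8897 when 1 sample was left out, where the lone sample of a group is assumed to vary like the other group. The count of genes called moved in 2 settings. With a mean of at least 5 CPM, 2269 of the 8870 genes tested were called (1176 higher and 1093 lower). That is a smaller share than the 31.1% called with a mean of at least 0.5 CPM. With a fold of at least 2 the count was 1657 (861 higher and 796 lower). It was 3538 to 3598 when 1 sample was left out (1804 to 1852 higher, 1721 to 1746 lower), 3545 with the replicate block, 3436 with the block and the GC correction, and 2523 when limma tested against a fold of 1.5. Alternatives chosen after seeing the data gave 2967 when differences were centred on 20-Mb windows and 2770 without windows whose medians passed 0.3 in size. Genes switched on numbered 46 and genes switched off 15 when at least 5 CPM was asked for, and 171 to 179 and 41 to 44 when 1 sample was left out. The share of higher genes among those called lay between 46.3% and 53.8%. Of the 63 list counts of at least 3, 60 stayed within 1.5 times with a pseudocount of 1 CPM (fallen transporters went from 8 to 4, risen ion channels from 14 to 9 and risen oxidative phosphorylation genes from 4 to 2) and 62 with quantile normalization (fallen serine synthesis genes from 5 to 8). No named gene reversed direction, and 14 of the values of Fgf2, Plin4, Krt8, Krt18, Jup and Sqle under alternatives no longer passed the same threshold. The replicate block moved the count of genes called from 3543 to 3545 and of those lower from 1720 to 1722. Count tests with edgeR and DESeq2 were not run because whole reads were not recovered for nearly all values. At this depth a gene under 0.1 CPM rests on fewer than 6 reads per sample, which covers counting error only.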
